A study of Rattus norvegicus with 4 samples.

Results

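The 9 genes described here encode the enzymes between glucose 6-phosphate and lactate that liver cells use in glycolysis, gluconeogenesis or both: Gpi, Pfkl, Fbp1, Tpi1, Gapdh, Pgk1, Eno1, Pklr and Ldha. They were taken by gene symbol, in pathway order, from a table of 32545 gene rows, and each symbol had a single row. Messenger RNA was sequenced from rat liver in 2 libraries of animals under forced activity with sleep restriction (sleep restriction 1 and 2) and 2 libraries of animals under forced activity alone, the control (forced activity 1 and 2). Both groups were therefore kept active, and restricted sleep is what the labels add in the first. Strain, sex, age, the length of the restriction and the time of tissue collection are not stated in the labels, nor whether a library is 1 animal or a pool, so p-values measure the spread between these libraries only.

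Glycolysis breaks glucose down to pyruvate, and gluconeogenesis rebuilds glucose from pyruvate and lactate, a task for which liver is the main organ. Most steps are reversible and the same enzyme serves both directions, as do Gpi, Tpi1, Gapdh, Pgk1, Eno1 and Ldha. A few steps are not reversible and are set by opposing enzymes. Pfkl and Pklr work only in the direction of glycolysis, and Fbp1 works only in the direction of gluconeogenesis, so these 3 are not shared by both directions in the strict sense.

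The deposited counts summed to 515682.4 and 520275.6 in sleep restriction 1 and 2, and to 508202.6 and 520204.5 in forced activity 1 and 2. All values are multiples of 0.1, and in sleep restriction 2 alone nearly every row, 32544 of them, holds a whole number. Genes above 0 numbered 14105 and 10952 under sleep restriction, against 14008 and 11943 under forced activity. Both replicate 1 libraries thus have more genes above 0 than both replicate 2 libraries. Values as low as 0.1 count as above 0, and whole-number rows cannot hold them. Sleep restriction 2 is therefore not comparable with the other libraries on this number. The part these differences play in the results was not tested. Differences within each replicate pair are given beside the pooled ones. The 8 hepatocyte markers summed to 198400 and 203550 CPM (counts per 1e6 counts, scaled by TMM factors) under sleep restriction, and to 192860 and 193980 CPM under forced activity. Skeletal muscle markers, whose tissue is also rich in these enzymes, summed to at most 1 count in any library, with Ckm, Acta1 and Mb at 0 throughout.

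None of the 9 enzymes was shown to differ between sleep restriction and forced activity. Of 9 members 8 passed the filter on low counts, and 0 of these 8 were called by edgeR's quasi-likelihood test at a Benjamini-Hochberg adjusted p under 0.05, against 1 of 4986 tested genes or 0.0201% (RT1-A2, a class I histocompatibility gene that is no member). At an unadjusted p under 0.05 there were 0 members, against 4.19% of all tested genes. Of the 8, 4 had a positive and 4 a negative log2 change of sleep restriction over forced activity, with a median of -0.02, against a median of 0.00 over all tested genes. DESeq2 and limma-voom also called 0 members. With any 1 library left out 0 members were called, while the count over all genes was 2 without sleep restriction 2 and 0 without any of the others. The changes ran from -0.27 for Ldha to 0.28 for Fbp1, and each of the 8 had an adjusted p of 0.999. In bulk liver, fewer cells of a type and less RNA per cell cannot be told apart.

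The summed level of the 9 genes was 2225 and 2210 CPM in sleep restriction 1 and 2, against 2416 and 1947 CPM in forced activity 1 and 2. Both sleep restriction libraries lay between the forced activity libraries. The members made up 0.222% and 0.219% of counts under sleep restriction, and 0.235% and 0.201% under forced activity. Counts were not divided by transcript length, so levels are compared between libraries and not between genes.

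**Figure D1:**
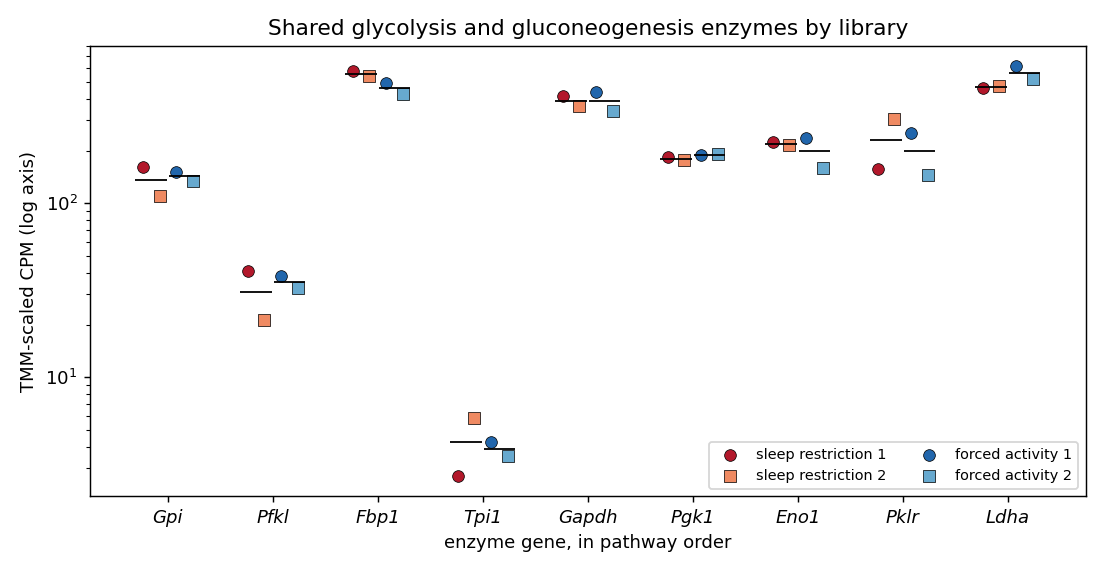
TMM-scaled CPM of the 9 enzyme genes in pathway order (x axis) on a log axis (y axis), with a point for each library and a short line at each group's mean of 2 libraries. Fbp1 was higher and Pgk1 and Ldha lower in both sleep restriction libraries than in both forced activity libraries, and the groups overlap for the other 6 genes. Of all tested genes, 17.1% were likewise higher and 15.3% lower.

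Gpi, the isomerase that interconverts glucose 6-phosphate and fructose 6-phosphate, is listed on chromosome 1 from 90063411 to 90091287 in rn6. It had 83.5 and 57 counts in sleep restriction 1 and 2, against 75.3 and 72.3 counts in forced activity 1 and 2. The sleep restriction libraries enclosed both control values. Its level was 136 ± 36.4 CPM under sleep restriction and 143 ± 12.6 CPM under forced activity (SD, 2 libraries each), a log2 change of -0.06 (SE 0.24, 95% interval -0.57 to 0.46). The change was 0.03 without forced activity 1 and 0.18 without sleep restriction 2.

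Pfkl, the liver type of phosphofructokinase and the committing step of glycolysis, is listed on chromosome 20 from 11393877 to 11415882. It was the lowest counted of the tested members, with 21 and 11 counts in sleep restriction 1 and 2, against 18.8 and 17.5 counts in forced activity 1 and 2. Only sleep restriction 2 stood low, and 11 counts carry an exact 95% Poisson interval of 5.49 to 19.7, which reaches the control values. The log2 change was -0.18 (SE 0.30, 95% interval -0.85 to 0.48), from 0.09 in the replicate 1 pair and -0.53 in the replicate 2 pair, and it became 0.16 without sleep restriction 2.

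Fbp1, the fructose-1,6-bisphosphatase that reverses the Pfkl step, is listed on chromosome 17 from 396180 to 417480. It had 297.4 and 277 counts in sleep restriction 1 and 2, against 243.7 and 228.4 counts in forced activity 1 and 2. It was the only member higher in both sleep restriction libraries than in both control libraries, a pattern that 17.1% of all tested genes also showed. The level was 557 ± 28.1 CPM under sleep restriction and 458 ± 48.2 CPM under forced activity (SD, 2 libraries each). Its log2 change of 0.28 (SE 0.20, 95% interval -0.16 to 0.71) had an unadjusted p of 0.185 in edgeR. The replicate pairs gave 0.23 and 0.34, so the difference was close to equal in both pairs, yet it stayed within the error of the test.

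Tpi1, the isomerase of the triose phosphates, is listed on chromosome 4 from 157328379 to 157331905 and was nearly uncounted. It had 1.4 and 3 counts in sleep restriction 1 and 2, against 2.1 and 1.9 counts in forced activity 1 and 2. These counts lie at or under 3 in every library and below the gene filter, so Tpi1 was not tested, and the 3 counts of sleep restriction 2 have an exact 95% Poisson interval of 0.619 to 8.77. Every other member had at least 11 counts in each library.

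Gapdh, which oxidises glyceraldehyde 3-phosphate and is widely used as a reference gene, is listed on chromosome 4 from 157676595 to 157679962. It had 212.9 and 188 counts in sleep restriction 1 and 2, against 214.9 and 181.9 counts in forced activity 1 and 2. Both sleep restriction libraries lay between the control libraries, with 389 ± 34.2 CPM under sleep restriction and 386 ± 68.1 CPM under forced activity (SD, 2 libraries each). The log2 change was 0.01 (SE 0.21). Its 95% interval corresponds to between 0.731 and 1.39 times the control level, so changes within these bounds are compatible with these libraries. The interval is not a limit of detection, because calls were adjusted over all tested genes. The log2 change was -0.16 without forced activity 2 and -0.09 without sleep restriction 1.

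Pgk1, the phosphoglycerate kinase that makes ATP in the next step, is listed on the X chromosome from 77263359 to 77279367. It had 95 and 91 counts in sleep restriction 1 and 2, against 94.2 and 102.8 counts in forced activity 1 and 2. The counts overlapped between the groups, while on the CPM scale it was lower in both sleep restriction libraries, at 180 ± 5.52 CPM against 191 ± 0.447 CPM under forced activity (SD, 2 libraries each). On that scale 15.3% of all tested genes were lower in this way. The range of Pgk1 was narrow. Its highest library was 1.08 times its lowest, the narrowest range of the 8 tested members, where the median over all tested genes was 1.50. The 91 counts of sleep restriction 2 have an exact 95% Poisson interval of 73.3 to 112, which covers the counts of the other libraries. The narrow range is thus not read as stability. The log2 change was -0.08 (SE 0.20, 95% interval -0.52 to 0.36).

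Eno1, the enolase that forms phosphoenolpyruvate, is listed on chromosome 5 from 167288223 to 167299609. It had 116.2 and 111 counts in sleep restriction 1 and 2, against 118.1 and 85.8 counts in forced activity 1 and 2. A single control library stood low, and the other 3 libraries lay between 111 and 118.1 counts. The log2 change was 0.15 (SE 0.23, 95% interval -0.36 to 0.66) and turned to -0.12 when forced activity 2 was left out.

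Pklr, the pyruvate kinase of liver and red cells and the last irreversible step of glycolysis, is listed on chromosome 2 from 188449210 to 188459592. It varied most among the tested members, with 81.7 and 157 counts in sleep restriction 1 and 2, against 125.6 and 78.7 counts in forced activity 1 and 2. Its highest library was 2.08 times its lowest, and the high and low values fell in both groups. The 157 counts of sleep restriction 2 have an exact 95% Poisson interval of 133 to 184, which does not reach the value of sleep restriction 1. The level was 232 ± 103 CPM under sleep restriction and 200 ± 76.1 CPM under forced activity (SD, 2 libraries each). The log2 change of 0.21 (SE 0.34, 95% interval -0.55 to 0.97) joined -0.67 in the replicate 1 pair and 1.04 in the replicate 2 pair, and was -0.33 without sleep restriction 2 and -0.14 without forced activity 2.

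Ldha, the lactate dehydrogenase subunit that interconverts pyruvate and lactate, is listed on chromosome 1 from 102900286 to 102909707. It had 237.6 and 244 counts in sleep restriction 1 and 2, against 303.3 and 278.7 counts in forced activity 1 and 2. Ldha and Pgk1 were the 2 members lower in both sleep restriction libraries than in both control libraries, a pattern shown by 15.3% of all tested genes. The level was 467 ± 8.70 CPM under sleep restriction and 565 ± 67.2 CPM under forced activity (SD, 2 libraries each). Its log2 change of -0.27 (SE 0.20, 95% interval -0.71 to 0.16) had an unadjusted p of 0.198 in edgeR, with -0.41 and -0.13 in the replicate pairs.

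**Figure D2:**
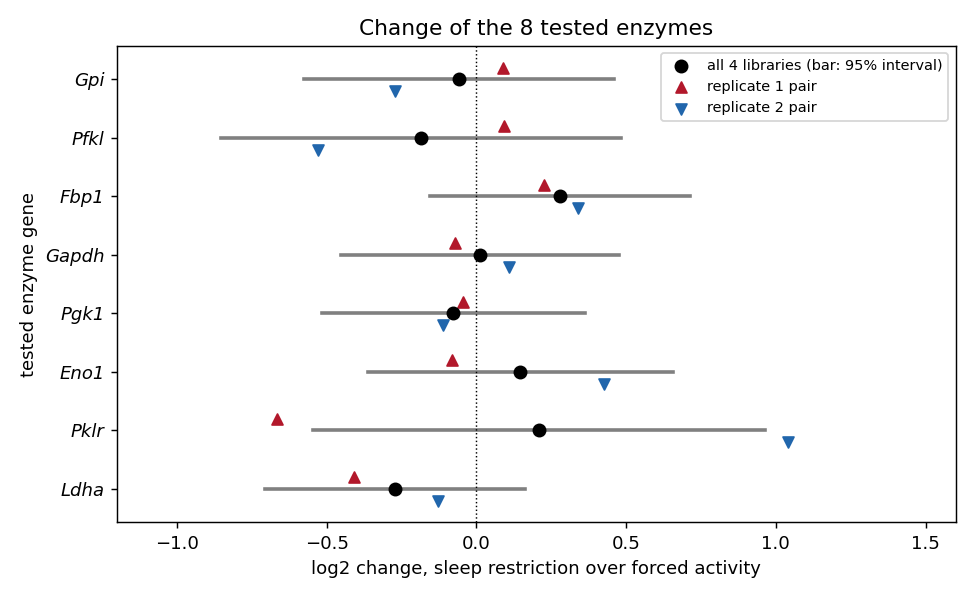
Log2 change of sleep restriction over forced activity (x axis) for the 8 tested enzymes (y axis). Black points with bars are the edgeR estimates from 4 libraries with 95% intervals, and triangles are the differences within the replicate 1 and replicate 2 pairs. Every interval spans 0. The pairs point in opposite directions for 5 enzymes and in the same direction for 3, where 2796 of 4986 tested genes had the same direction in both. The pairs lie farthest apart for Pklr.

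Windows of 300 bases around the gene start, 250 before and 50 after, are shown for the gene that varied most (Pklr), for the member with the most negative change (Ldha) and for the member with the most positive one (Fbp1). They are RefSeq sequences on GRCr8, a later build than the rn6 of the counts, and were matched by symbol, which 8 of the 9 members allowed. All 3 lie on the + strand. Capitals mark every match, on either strand, to TATAAA, to the GC box GGGCGG, to the E-box CACGTG, to its inner part ACGTG (which the E-box contains), or to a pair of shortened E-boxes, CACG and CGTG, set 9 bases apart.
Pklr, chr2:176841014-176841313: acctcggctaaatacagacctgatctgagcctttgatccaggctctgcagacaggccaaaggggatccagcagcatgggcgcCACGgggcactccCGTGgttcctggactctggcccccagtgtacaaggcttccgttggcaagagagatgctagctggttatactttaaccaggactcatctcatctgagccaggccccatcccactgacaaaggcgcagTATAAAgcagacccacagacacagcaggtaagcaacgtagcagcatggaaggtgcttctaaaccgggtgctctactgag
Ldha, chr1:106507842-106508141: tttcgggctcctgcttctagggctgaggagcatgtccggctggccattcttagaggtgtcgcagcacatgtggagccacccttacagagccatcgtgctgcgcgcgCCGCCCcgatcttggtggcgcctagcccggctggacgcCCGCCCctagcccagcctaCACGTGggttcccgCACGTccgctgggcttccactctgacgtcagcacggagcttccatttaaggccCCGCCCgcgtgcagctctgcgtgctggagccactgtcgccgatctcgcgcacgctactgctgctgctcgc
Fbp1, chr17:2213457-2213756: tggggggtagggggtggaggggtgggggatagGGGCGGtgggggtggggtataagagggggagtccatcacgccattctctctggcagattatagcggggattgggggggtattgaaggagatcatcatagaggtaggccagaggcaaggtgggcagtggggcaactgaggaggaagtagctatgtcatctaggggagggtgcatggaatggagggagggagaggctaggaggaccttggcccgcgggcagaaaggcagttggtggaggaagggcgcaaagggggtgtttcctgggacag

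The Pklr window held this pair from position -168, counted back from the gene start, and TATAAA from position -29. The paired arrangement occurred in 0.182% of 33469 windows of the same length, and in none of the windows listed for 7 other members. In rat Pklr such a pair is known from earlier work as the carbohydrate response element, through which the gene is induced by glucose. The Ldha window held CACGTG from position -87, a further ACGTG from position -73 and 3 GC boxes, and lacked TATAAA. The letters ACGTG, the core letters of hypoxia response elements, occurred in 19.3% of windows, CACGTG in 6.42%, GGGCGG in 33.1% and TATAAA in 14.2%. The Fbp1 window held 1 GC box and no match to the other motifs. These matches describe letters and not occupied sites.

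The balance between the opposing enzymes was read within each library, where it does not depend on scaling. Pklr counts were 27.5% and 56.7% of Fbp1 counts in sleep restriction 1 and 2, against 51.5% and 34.5% in forced activity 1 and 2. The groups overlapped, and the mean log2 ratio (with 0.5 added to each count) was -1.34 ± 0.74 under sleep restriction and -1.24 ± 0.41 under forced activity (SD, 2 libraries each; exact two-sided permutation p = 1). The difference of -0.10 was 0.19 without forced activity 1 and 0.43 without sleep restriction 1. Pfkl counts were 7.06% and 3.97% of Fbp1 counts in sleep restriction 1 and 2, against 7.71% and 7.66% in forced activity 1 and 2. Both sleep restriction libraries lay below both control libraries, by a mean log2 difference of -0.53, which was -0.13 without sleep restriction 2 and -0.93 without sleep restriction 1. The exact two-sided permutation p was 0.333, the smallest that 2 libraries against 2 allow, for 2 ratios examined.

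Other isoenzymes of the members' reactions were close to uncounted. Of 10 isoenzyme genes for the same steps, with 11 rows, 0 rows passed the gene filter and the highest single value was 4.4 counts. Pkm, the muscle and general pyruvate kinase, had 4.4 and 4 counts in sleep restriction 1 and 2, against 3.3 and 2 in forced activity 1 and 2, at its row on chromosome 8. Pfkm, the muscle phosphofructokinase, had 3 and 1 counts under sleep restriction and 1.6 and 1.6 under forced activity. Ldhb, the heart type lactate dehydrogenase subunit, had 1.4 and 0 counts under sleep restriction and 0.8 and 1.7 under forced activity, and Eno3, the muscle enolase, stayed between 1 and 1.5 counts. Pgk2, Eno2 and Ldhc were at 0 in all libraries, and Pfkp, Fbp2 and Gapdhs were below 1 count in each. None of these rows was tested, and at such counts no difference is read from them, including Pkm, where both sleep restriction values lie above both forced activity values.

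Enzymes at other steps of the pathway were measured beside the members. Hk1, Hk2 and Hk3, hexokinases of other tissues, had at most 2.3 counts. Aldoa, the aldolase of muscle, had 32.2 and 28 counts under sleep restriction and 22.1 and 43.6 under forced activity, while Aldoc did not exceed 0.7. Pgam1, the mutase between Pgk1 and Eno1, was level, with 69.1 and 67 counts under sleep restriction and 68.9 and 62.5 under forced activity, and Pgam2 was at 0.

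Pck1 and the G6pc row with the higher counts, at the entry and exit of gluconeogenesis, differed more between the 2 sleep restriction libraries than between groups. Pck1, which makes phosphoenolpyruvate, had 1493.4 and 562 counts in sleep restriction 1 and 2, against 1095.2 and 1055.4 counts in forced activity 1 and 2. G6pc, the glucose 6-phosphatase, had 396 and 55 counts in sleep restriction 1 and 2, against 79 and 120 counts in forced activity 1 and 2, at the row on chromosome 10 that starts at 89285855. In both genes the sleep restriction libraries were the highest and the lowest of the 4. The log2 change at this G6pc row was 1.18 (SE 1.04, adjusted p 0.999 in edgeR), and without sleep restriction 2 it was 1.98 with an adjusted p of 0.0370 in edgeR, where a single sleep restriction library stands for the group. A second row of the G6pc symbol, starting at 89236256, had 17.3 and 27 counts under sleep restriction and 15 and 15 under forced activity. On the CPM scale this row was higher in both sleep restriction libraries than in both control libraries, as were 17.1% of all tested genes. Its log2 change was 0.50 (SE 0.29), and it was not called. Pc, the pyruvate carboxylase, had 199.5 and 142 counts under sleep restriction and 209 and 147.1 under forced activity, and Pck2, the mitochondrial counterpart of Pck1, had 5.3 and 4 counts under sleep restriction and 7.3 and 2.6 under forced activity.

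Sleep restriction 2 thus held the highest Pklr and the lowest Pck1, Pfkl and G6pc (the row with the higher counts) of the 4 libraries, and sleep restriction 1 held the highest of these 3. The second G6pc row ran the other way, with its highest value in sleep restriction 2. On the log2 scale Pklr stood at 0.56 relative to its mean over the 4 libraries in sleep restriction 2 and at -0.37 in sleep restriction 1. Fbp1 did not follow this contrast, at 0.19 in sleep restriction 1 and 0.09 in sleep restriction 2. These genes were picked out after their values were seen, and the contrast between single libraries was not tested.

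**Figure D3:**
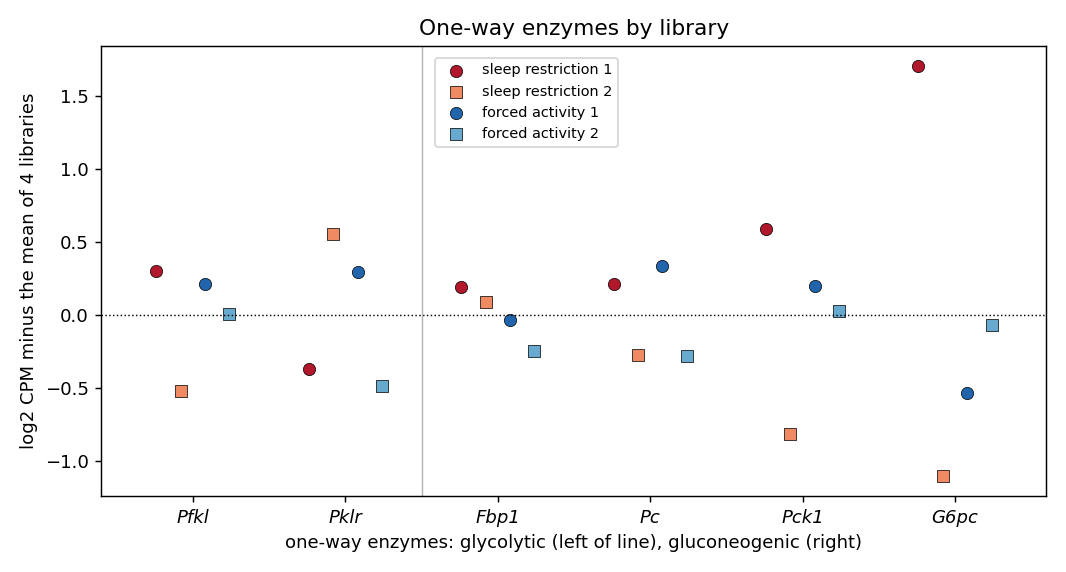
Log2 CPM minus the mean of the 4 libraries (y axis) for enzymes that work in a single direction (x axis), glycolytic to the left of the grey line and gluconeogenic to the right, with a point for each library. G6pc is its row with the higher counts. The sleep restriction libraries lie at opposite ends for Pfkl, Pck1 and G6pc and are wide apart for Pklr, while Fbp1 stays within 0.44 on this scale.

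The wider pathway list of 48 symbols, which adds transporters, regulators and the enzymes around pyruvate, had rows for 45 symbols. Of its 48 rows 25 were tested, and 0 were called in either direction by edgeR, with 0 at an unadjusted p under 0.05, against 4.19% of all tested genes. Under the alternatives that kept every library this second count ran from 0 to 2. It was 2 at 5 CPM in 2 libraries, against 267 of 8851 tested genes. It was also 2 with a replicate block, against 303 of 4986 tested genes. This range leaves out the fits without 1 library, where a single library stands for a group. DESeq2 and limma-voom also called 0, and leaving out sleep restriction 2 called 1, G6pc. The median log2 change was -0.04, against 0.00 over all tested genes, with 11 positive and 14 negative.

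Several members have copies named after them. RefSeq on GRCr8 names 91 copies after Gapdh, 34 after Eno1, 31 after Ldha, 9 after Pgk1 and 5 after Tpi1, most of them pseudogenes, and 0 after Gpi, Pfkl, Fbp1 or Pklr. Apart from Gapdhs, which is named above, the only row of the count table that carries such a name is Gapdh-ps2, with 2.4 and 1 counts in sleep restriction 1 and 2, against 2.3 and 1.1 in forced activity 1 and 2. The handling of reads shared with copies is not stated in these sources, so the levels of the 5 enzymes with copies may be affected, which was not tested. The listed interval of Pklr overlaps that of Hcn3, which was at 0 in all libraries.

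Markers of other cell types varied between libraries. Red cell markers, of which 5 of 6 had a row, summed to 1117 and 648 CPM in sleep restriction 1 and 2, against 826 and 1696 CPM in forced activity 1 and 2, with Slc4a1 at 0 in sleep restriction 2. Pklr, which red cells also use, was highest where this sum was lowest and lowest where it was highest. Endothelial markers, of which 7 of 8 had a row, summed to 355 and 204 CPM under sleep restriction and 120 and 379 CPM under forced activity. Macrophage markers, all 8 present, summed to 871 and 586 CPM under sleep restriction and 551 and 710 CPM under forced activity. Their part in the members' values was not tested.

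The 8 tested members had a mean profile, relative to each gene's own mean log2 CPM, of 0.05 and -0.05 in sleep restriction 1 and 2, and 0.16 and -0.16 in forced activity 1 and 2. Gapdh lay nearest to it, with a root mean square distance of 0.0324 over the 4 libraries, and Pklr and Pfkl farthest, at 0.409 and 0.281. Among 2189 other tested genes of at least 50 CPM, Vdac2 (0.0123), Fam134c (0.0144) and Atp5e (0.0147) came nearest. The likeness rests on 4 libraries, and each tested member, Gapdh among them, is itself part of the mean. Vdac2, Fam134c and Atp5e were picked as the nearest of 2189, so their small distances are no support for a link.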

How the data were processed

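RNA was extracted from liver with TRIzol and mRNA libraries were made with an Illumina kit, per the labels' protocols. CASAVA, STAR 2.4.1d and rn6 are named without a role in the submitters' processing notes, and the counter is not given in these sources. The authors deposited a table of estimated counts per gene. Words in the table's name mark sense strand counts and an average of 10, which the multiples of 0.1 match outside sleep restriction 2. That library holds whole numbers in nearly every row. Whether its counting error differs from that of the other libraries was not tested. The name's word MIN was not interpreted.

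The rounded values went into edgeR 4.0.16 (R 4.3.3): library sizes over all rows, TMM factors from 0.975 to 1.035, filterByExpr with a minimum count of 10, robust quasi-likelihood F test, and Benjamini-Hochberg adjustment over 4986 genes. Log2 changes carry a prior count of 2. SE is the change divided by the root of its F statistic, and 95% intervals use it with the fit's degrees of freedom. CPM come from unrounded values, and differences within pairs are log2 CPM with a prior count of 2. Poisson intervals, which cover counting error only, are given for sleep restriction 2, where nearly all values are whole.

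The members and gene lists were chosen with earlier results of these data known. All 9 members are named, with the isoenzymes and enzymes of the steps left out, some of which are not reported here. Alternatives were DESeq2 1.42.0, limma-voom (limma 3.58.1), other size factors and filters, unrounded values, removal of the 10 most abundant genes, a replicate block and leaving out each library.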

Additional observations from a re-analysis of the deposited data

How the results depend on the processing

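No member was called under any of the 13 alternatives, with a smallest adjusted p of 0.683 (Pfkl in edgeR without sleep restriction 1). Fbp1 (0.17 to 0.39), Pgk1 (-0.12 to -0.05) and Ldha (-0.39 to -0.15) kept their sign throughout. In these members the groups do not overlap on the CPM scale, as in 17.1% (higher) and 15.3% (lower) of all tested genes. Leaving out 1 library is then not expected to turn the sign, nor that of the Pfkl over Fbp1 ratio difference. These kept signs therefore add no support. With single libraries left out Gpi ran from -0.36 to 0.18, Pfkl from -0.66 to 0.16, Gapdh from -0.16 to 0.20, Eno1 from -0.12 to 0.46, Pklr from -0.33 to 0.65, the Pklr over Fbp1 log2 ratio difference from -0.62 to 0.43 and that of Pfkl over Fbp1 from -0.93 to -0.13. The sign turned for Gpi without forced activity 1 (0.03) or sleep restriction 2 (0.18), for Pfkl without sleep restriction 2 (0.16), for Gapdh with all genes kept (-0.018), at 5 CPM in 2 libraries (-0.022), and without forced activity 2 (-0.16) or sleep restriction 1 (-0.09), for Eno1 without forced activity 2 (-0.12), for Pklr without forced activity 2 (-0.14) or sleep restriction 2 (-0.33), and for the Pklr over Fbp1 ratio without forced activity 1 (0.19) or sleep restriction 1 (0.43). The count of called genes was 1 as reported, 5 without a filter, 2 with DESeq2, 0 with limma-voom (186 at an unadjusted p under 0.05), 0 without robust estimation in edgeR (181) and 0 to 2 with 1 library left out. Across 4986 genes, deviations from the group means correlated at 0.206 between the replicate 1 libraries of the 2 groups. The replicate 2 deviations mirror these and add nothing. The labels do not say that numbers pair animals, and a replicate block called 5 genes and no member. The cause of these shifts was not tested. With 1 library left out, the lone library is taken to vary like the other group. Counts were lowest for Tpi1 (at most 3) and Pfkl (11 to 21).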
